A study of Homo sapiens with 6 samples.

Results

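The 10 genes described here sense double-stranded RNA and lead to the making of interferon: DDX58, IFIH1, DHX58, TLR3, EIF2AK2, ADAR, MAVS, IRF3, IRF7 and IFNB1. They were taken by gene symbol from the deposited table of 58735 genes, and all 10 were found. The libraries came from KYSE30, an established human cell line from an oesophageal squamous cell carcinoma. The 3 groups of 2 RNA sequencing libraries each were cells given the RAB23 siRNA si-RAB23-9, cells given the RAB23 siRNA si-RAB23-1, and cells given the control siRNA si-NC, all at 100 nM. RAB23 is a small GTPase of membrane traffic. Every group had thus received a transfected short double-stranded RNA, and no group of untransfected cells is analysed here. The sequences of the siRNAs, any chemical modification of them and the hours until harvest are not given in those sources that were used.

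Cells carry receptors that bind double-stranded RNA, a mark of viral infection that synthetic RNA can also present. In the cytosol RIG-I (encoded by DDX58), which prefers short duplexes and their ends, and MDA5 (IFIH1), which prefers long duplexes, signal through the mitochondrial adaptor MAVS, while TLR3 reads duplexes in endosomes. Kinases below them activate the transcription factors IRF3 and IRF7, which switch on interferon beta (IFNB1) and lambda interferons. Secreted interferon then raises many genes through its receptors, including most of the sensors themselves. PKR (EIF2AK2) halts translation when it binds duplex RNA, and ADAR edits adenosines in duplexes and so limits their sensing.

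Promoter sequence is shown for 5 of the genes because they differ in matches to some forms of the sites that interferon-activated factors and NF-kappaB are known to bind. Each line runs 5′ to 3′ along the gene, 250 bases before the annotated start and 30 bases from it, credited to RefSeq on GRCh38.p14, in which DDX58 is listed as RIGI. Capitals mark matches on either strand of GAAA, any 2 bases or any 1 base, and GAAA again, which are spacings of the core of the interferon-stimulated response element, or of GGGA, any 2 bases and TTCC, a form of the NF-kappaB site.

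DDX58, chr9:32526167-32526446, reverse strand: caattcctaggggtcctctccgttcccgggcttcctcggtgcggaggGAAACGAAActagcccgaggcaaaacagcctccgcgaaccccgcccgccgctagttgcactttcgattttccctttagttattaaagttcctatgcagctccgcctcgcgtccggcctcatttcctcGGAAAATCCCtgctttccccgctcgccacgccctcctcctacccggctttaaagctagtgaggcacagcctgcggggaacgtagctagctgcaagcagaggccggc
IFIH1, chr2:162318655-162318934, reverse strand: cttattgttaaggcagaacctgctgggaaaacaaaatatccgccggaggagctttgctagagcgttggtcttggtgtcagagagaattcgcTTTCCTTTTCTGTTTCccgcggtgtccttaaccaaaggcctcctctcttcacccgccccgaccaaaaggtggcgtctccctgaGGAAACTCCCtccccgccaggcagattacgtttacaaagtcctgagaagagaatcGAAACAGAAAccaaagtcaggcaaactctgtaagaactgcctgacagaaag
EIF2AK2, chr2:37156951-37157230, reverse strand: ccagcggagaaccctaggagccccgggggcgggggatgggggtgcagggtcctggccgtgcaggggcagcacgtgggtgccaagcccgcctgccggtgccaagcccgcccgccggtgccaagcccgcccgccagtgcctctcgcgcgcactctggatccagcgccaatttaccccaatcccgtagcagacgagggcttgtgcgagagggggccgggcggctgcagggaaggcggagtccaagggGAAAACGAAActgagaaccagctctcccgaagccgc
TLR3, chr4:186068906-186069185, forward strand: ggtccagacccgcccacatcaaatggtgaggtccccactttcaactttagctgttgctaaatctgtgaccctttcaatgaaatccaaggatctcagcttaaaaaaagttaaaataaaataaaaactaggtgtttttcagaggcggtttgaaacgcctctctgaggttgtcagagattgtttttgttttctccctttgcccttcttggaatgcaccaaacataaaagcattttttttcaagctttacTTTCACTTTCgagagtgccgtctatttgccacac
IFNB1, chr9:21077913-21078192, reverse strand: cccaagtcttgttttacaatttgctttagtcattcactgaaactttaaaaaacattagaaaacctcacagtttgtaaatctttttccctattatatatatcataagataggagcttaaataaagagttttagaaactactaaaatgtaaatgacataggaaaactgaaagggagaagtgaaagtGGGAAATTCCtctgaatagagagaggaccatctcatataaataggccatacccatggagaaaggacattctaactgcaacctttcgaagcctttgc

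Matches are described by letters alone and are not evidence of binding. Base 1 is the annotated start, and there is no base 0. In DDX58 GAAACGAAA, with the 1-base spacing, lay at -203 to -195 and an NF-kappaB match on the opposite strand at -76 to -67. IFIH1 held 3 matches with the 2-base spacing, of which those starting at -159 and -153 were on the opposite strand and overlapped each other and the last lay at -21 to -12, and it held an NF-kappaB match at -76 to -67. The match of EIF2AK2, GAAAACGAAA, lay across the start at -6 to 4, and that of TLR3 lay at -4 to 6 on the opposite strand. IFNB1 held GGGAAATTCC at -66 to -57 and neither spacing of the response element. Wider spacings, such as gaaaactgaaa in the IFNB1 line, were not searched. Lack of a match is therefore not lack of a site for these factors. Among 35116 promoter windows of 300 bases, 3.57% held the 2-base spacing, 3.12% the 1-base spacing and 1.61% the NF-kappaB form. None of these letters was found in the windows of ADAR or MAVS. DHX58, IRF3 and IRF7 were not matched to a window.

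Reads per library, recovered from the deposited values, came to between 17211025 and 24178125. RAB23 itself, the siRNA target, had 1.18 and 1.27 FPKM (a level per gene length and sequencing depth) in si-RAB23-9 libraries and 1.03 and 1.10 FPKM in si-RAB23-1 libraries, against 3.27 and 3.33 FPKM in si-NC libraries. RAB23 fell in both (limma log2 fold changes of FPKM + 1 of -0.95 and -1.06, adjusted p = 0.00392 and 0.00314). This scale understates changes of low genes: mean RAB23 FPKM was 0.372 and 0.322 times that of si-NC. The level of RAB23 did not pass the test between the siRNAs (difference 0.11 on the same scale, 95% interval -0.09 to 0.31, limma adjusted p = 0.383). Its mean FPKM with si-RAB23-9 was 1.15 times that with si-RAB23-1. The epithelial markers EPCAM and CDH1 were at 80.9 to 96.8 FPKM in all libraries, and the basal keratin KRT5 was at most 0.272 FPKM, near 0 for a squamous marker. Of 8 squamous markers 7 were tested: 3 rose and 1 fell with si-RAB23-9, and 4 rose with si-RAB23-1. Of all genes tested, 13.3% and 15.4% were called in these comparisons. Between the siRNAs, 2 of the markers were higher and 4 were lower with si-RAB23-9, beside 21.0% of all genes tested. The part of these markers in the results below was not tested. The 7 markers of leukocytes summed to 0.787 and 0.599 FPKM in si-RAB23-9 libraries, 0.911 and 0.921 FPKM in si-RAB23-1 libraries and 0.951 and 0.952 FPKM in si-NC libraries. None of these 7 reached the test. The 5 plasmacytoid dendritic cell markers summed to 1.22 and 0.928 FPKM with si-RAB23-9 and 1.06 and 1.06 FPKM with si-RAB23-1, against 1.19 and 1.77 FPKM with si-NC, and their defining CLEC4C and LILRA4 had no read in any library. The 6 fibroblast markers, 4 of them at 0 throughout, summed to 3.65 and 3.87 FPKM with si-RAB23-9 and 3.41 and 3.48 FPKM with si-RAB23-1, against 3.43 and 3.36 FPKM with si-NC. The 4 endothelial markers, with KDR at 0, summed to 2.73 and 3.16 FPKM, 1.62 and 2.09 FPKM, and 3.79 and 3.77 FPKM in that order of groups.

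Levels of the 10 genes spanned a wide range in this epithelial line. In si-NC libraries ADAR was highest at a mean of 57.8 FPKM, followed by MAVS at 34.1, IRF3 at 26.0, EIF2AK2 at 15.7, DDX58 at 9.50, IFIH1 at 5.84, IRF7 at 2.73, TLR3 at 2.61, DHX58 at 0.755 and IFNB1 at 0.0244 FPKM. IRF7 and TLR3 were neighbours that could not be ordered: their si-NC means differed by 0.114 FPKM, less than the SD of 0.116 FPKM of TLR3, and their libraries overlapped in both other groups. No other neighbours overlapped within a group, and the order was otherwise the same with si-RAB23-9 and si-RAB23-1.

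**Figure D1:**
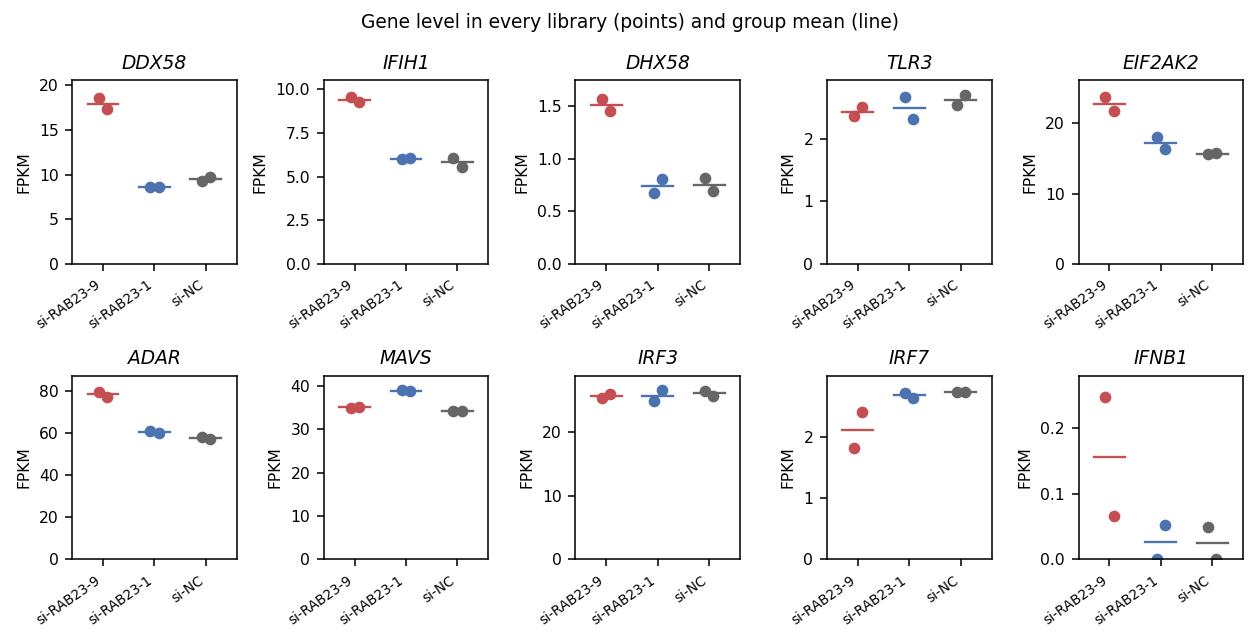
FPKM of each gene in each library (points) with the group mean (line), 1 panel per gene with its own axis from 0, for si-RAB23-9, si-RAB23-1 and si-NC from left to right. DDX58, IFIH1, DHX58, EIF2AK2 and ADAR sit higher in both si-RAB23-9 libraries than in the other 4, and for TLR3 the si-RAB23-1 points overlap those of both other groups.

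With si-RAB23-9, the cytosolic sensors, PKR and ADAR stood above both other groups, while MAVS, IRF3, IRF7 and TLR3 did not pass the test against si-NC. DDX58 rose to 1.89 times its si-NC level and IFIH1 to 1.61 times. Against si-NC, 5 of the 9 tested genes passed the test, all higher, where 13.3% of the 14352 genes tested passed (7.56% higher and 5.69% lower). DHX58 entered the test only through its si-RAB23-9 libraries, so all 10 genes were also tested with no filter on low values. Then 4 of 10 passed against 2.79% of 35196 genes, and the median log2 fold change was 0.30 over the 10 genes and 0 over all genes. Separate cultures are not stated for the libraries that the labels name as biological replicates, so limma p-values take in their spread alone, and it may be technical. In bulk RNA, more transcript per cell and more cells with the transcript cannot be told apart. Both comparisons with si-NC use the same si-NC libraries.

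DDX58 (ENSG00000107201, chromosome 9, 32455705 to 32526324, reverse strand, GRCh38) encodes RIG-I. It had 18.5 and 17.3 FPKM in si-RAB23-9 libraries and 8.58 and 8.62 FPKM in si-RAB23-1 libraries, against 9.28 and 9.73 FPKM in si-NC libraries. These rested on 1523 and 1338 reads, 619 and 834 reads, and 964 and 828 reads in the same order. Both si-RAB23-9 libraries were far above the other 4, and both si-RAB23-1 libraries lay just below both si-NC libraries. The log2 fold change of FPKM + 1 was 0.85 (SE 0.049, limma adjusted p = 0.00191) for si-RAB23-9 against si-NC and -0.13 (95% interval -0.25 to -0.0079, limma adjusted p = 0.138) for si-RAB23-1 against si-NC. The rise with si-RAB23-9 passed whichever single library was left out (limma adjusted p at most 0.0261).

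IFIH1 (ENSG00000115267, chromosome 2, 162267079 to 162318703, reverse strand) encodes MDA5. It had 9.53 and 9.27 FPKM in si-RAB23-9 libraries and 6.03 and 6.04 FPKM in si-RAB23-1 libraries, against 6.09 and 5.58 FPKM in si-NC libraries. The si-RAB23-9 libraries stood apart, and the si-RAB23-1 libraries lay between those of si-NC. The log2 fold change was 0.61 (SE 0.053, limma adjusted p = 0.00392) with si-RAB23-9 and 0.04 (95% interval -0.09 to 0.17, limma adjusted p = 0.633) with si-RAB23-1. The ratio of DDX58 to IFIH1, both per length, was 1.94 and 1.87 in si-RAB23-9 libraries and 1.42 and 1.43 in si-RAB23-1 libraries, against 1.52 and 1.74 in si-NC libraries. No group overlapped another in that ratio, for which no test was run.

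DHX58 (ENSG00000108771, chromosome 17, 42101404 to 42112733, reverse strand) encodes LGP2, a relative of the RIG-I and MDA5 helicases that lacks their signalling domains and tunes them. It was low, at 1.57 and 1.45 FPKM in si-RAB23-9 libraries and 0.675 and 0.808 FPKM in si-RAB23-1 libraries, against 0.817 and 0.692 FPKM in si-NC libraries. Its reads numbered 114 and 99 with si-RAB23-9, 43 and 69 with si-RAB23-1, against 75 and 52 with si-NC. The si-RAB23-9 libraries were above the others, which overlapped each other. The mean was 2.00 times that of si-NC, a log2 fold change of 0.52 on the FPKM + 1 scale, which understates low genes (SE 0.12, limma adjusted p = 0.0480). With si-RAB23-1 the log2 fold change was -0.01 (95% interval -0.32 to 0.29, limma adjusted p = 0.962). The si-RAB23-9 call was lost whichever library was left out (limma adjusted p 0.0575 to 0.200). The ratio of DDX58 to DHX58 was 11.8 and 11.9 with si-RAB23-9, 12.7 and 10.7 with si-RAB23-1, against 11.3 and 14.1 with si-NC, and these overlapped.

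TLR3 (ENSG00000164342, chromosome 4, 186069152 to 186088069, forward strand), the endosomal sensor, did not pass in any comparison. It had 2.36 and 2.5 FPKM in si-RAB23-9 libraries and 2.67 and 2.31 FPKM in si-RAB23-1 libraries, against 2.53 and 2.69 FPKM in si-NC libraries. The groups lay close together, and si-RAB23-1 overlapped both others. The log2 fold change was -0.07 (95% interval -0.27 to 0.12, limma adjusted p = 0.593) with si-RAB23-9 and -0.05 (95% interval -0.25 to 0.14, limma adjusted p = 0.708) with si-RAB23-1. Its promoter window, printed above, held the 2-base spacing across the start, as that of EIF2AK2 did.

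EIF2AK2 (ENSG00000055332, chromosome 2, 37099210 to 37157065, reverse strand) encodes PKR. It had 23.7 and 21.8 FPKM in si-RAB23-9 libraries and 18.1 and 16.3 FPKM in si-RAB23-1 libraries, against 15.6 and 15.7 FPKM in si-NC libraries. The groups did not overlap, and si-RAB23-1 lay between the other 2. The log2 fold change was 0.51 (SE 0.064, limma adjusted p = 0.00915) with si-RAB23-9, and 0.13 (95% interval -0.03 to 0.28, limma adjusted p = 0.241) with si-RAB23-1. The call was lost when either si-NC library (limma adjusted p = 0.0662 and 0.0668) or si-RAB23-9 replicate 1 (0.0570) was left out. EIF2AK2 shares 35 bases with GPATCH11 and 775 bases with a pseudogene on the opposite strand, and whether strand was used in the counting is not given.

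ADAR (ENSG00000160710, chromosome 1, 154582057 to 154628013, reverse strand) was the most abundant of the 10 genes and had 79.7 and 77.1 FPKM in si-RAB23-9 libraries and 61.0 and 60.3 FPKM in si-RAB23-1 libraries, against 58.1 and 57.4 FPKM in si-NC libraries. The si-RAB23-9 libraries were above the rest, and the groups did not overlap. The log2 fold change was 0.43 (SE 0.032, limma adjusted p = 0.00285) with si-RAB23-9, a ratio of 1.36, and 0.07 (95% interval -0.0100 to 0.15, limma adjusted p = 0.203) with si-RAB23-1. The values are per gene, so the interferon-inducible long form of ADAR and the constitutive short form were not separated. The ratio of ADAR to EIF2AK2 was 3.36 and 3.54 in si-RAB23-9 libraries and 3.38 and 3.69 in si-RAB23-1 libraries, against 3.72 and 3.66 in si-NC libraries.

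MAVS (ENSG00000088888, chromosome 20, 3846799 to 3876123, forward strand) is the adaptor that RIG-I and MDA5 share. It had 34.8 and 35.1 FPKM in si-RAB23-9 libraries and 38.9 and 38.8 FPKM in si-RAB23-1 libraries, against 34.1 and 34.2 FPKM in si-NC libraries. The si-RAB23-1 libraries were the highest, and the other 2 groups did not overlap but lay close together. For si-RAB23-9 against si-NC the log2 fold change was 0.04 (95% interval -0.04 to 0.11, limma adjusted p = 0.510). DDX58 thus stood at 0.532 and 0.493 of the MAVS level in si-RAB23-9 libraries and at 0.221 and 0.222 in si-RAB23-1 libraries, against 0.272 and 0.285 in si-NC libraries.

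Against si-NC, si-RAB23-1 changed 1 of the 9 tested genes, MAVS, which rose to 1.14 times its si-NC level (log2 fold change 0.18, SE 0.031, limma adjusted p = 0.0180). That share is below the 15.4% of all genes called in this comparison (8.13% higher and 7.26% lower, or 1622 higher and 2178 lower genes when reads were modelled with library totals). With no filter on low values 1 of 10 passed, against 2.98% of 35196 genes, and the median log2 fold change of the 10 was -0.0043 beside 0 over all genes. Leaving out 5 of the 6 libraries in turn, all but si-RAB23-1 replicate 2, ended the MAVS call (limma adjusted p up to 0.105), as did fitting the 2 groups alone (0.0539).

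Neither transcription factor below the sensors passed the test. IRF3 (ENSG00000126456, chromosome 19, 49659569 to 49665875, reverse strand), which is present before any signal and is activated by phosphorylation, had 25.4 and 25.9 FPKM in si-RAB23-9 libraries and 24.8 and 26.6 FPKM in si-RAB23-1 libraries, against 26.4 and 25.6 FPKM in si-NC libraries. The groups overlapped, and both log2 fold changes against si-NC were -0.02 (95% intervals -0.13 to 0.09 with each siRNA, limma adjusted p = 0.821 with si-RAB23-9 and 0.815 with si-RAB23-1). IRF3 shares 734 bases with BCL2L12 on the opposite strand, which averaged 35.1 FPKM with si-RAB23-9, 27.5 FPKM with si-RAB23-1 and 34.1 FPKM with si-NC, so its level is uncertain.

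IRF7 (ENSG00000185507, chromosome 11, 612553 to 615999, reverse strand), a factor that interferon normally induces, had 1.81 and 2.40 FPKM in si-RAB23-9 libraries and 2.71 and 2.64 FPKM in si-RAB23-1 libraries, against 2.73 and 2.73 FPKM in si-NC libraries. Both si-RAB23-9 libraries lay below the other 4, on 90 and 112 reads. The log2 fold change was -0.27 with si-RAB23-9 (95% interval -0.52 to -0.02), which did not pass over all genes (limma adjusted p = 0.148), and -0.02 with si-RAB23-1 (95% interval -0.27 to 0.23, limma adjusted p = 0.914).

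Between the siRNAs, si-RAB23-9 against si-RAB23-1, the difference uses no control library, although the spread was estimated over all 6. DDX58 (difference 0.98, SE 0.049, limma adjusted p = 0.00125) and IFIH1 (0.56, limma adjusted p = 0.00312) were higher with si-RAB23-9. DHX58 (0.53, limma adjusted p = 0.0344), EIF2AK2 (0.38, limma adjusted p = 0.0143) and ADAR (0.37, limma adjusted p = 0.00271) were also higher, and MAVS was lower (-0.15, limma adjusted p = 0.0258). TLR3 (-0.02, 95% interval -0.22 to 0.17), IRF3 (-0.00049, 95% interval -0.11 to 0.11) and IRF7 (-0.25, 95% interval -0.50 to 0.0046) did not pass. Of all genes tested, 21.0% passed in this comparison (11.1% higher and 9.89% lower). With no filter, 5 of the 10 passed, 4 higher and 1 lower, against 4.14% of genes, with a median of 0.27 over the 10 and 0 over all. DHX58 lost this call whichever library was left out, EIF2AK2 when si-RAB23-9 replicate 1 was (limma adjusted p = 0.0746), and MAVS when any but si-RAB23-1 replicate 2 was (up to 0.137).

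**Figure D2:**
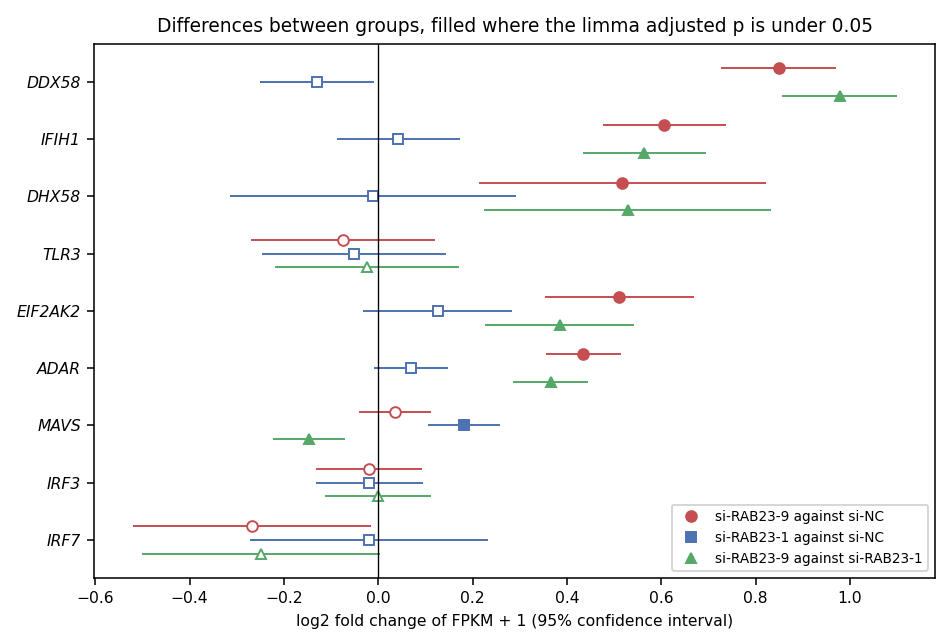
Log2 fold change of FPKM + 1 (horizontal axis) with its 95% confidence interval for the 9 tested genes, for si-RAB23-9 against si-NC, si-RAB23-1 against si-NC, and si-RAB23-9 against si-RAB23-1, with filled symbols where the limma adjusted p is under 0.05. DDX58 stands farthest to the right at 0.85 against si-NC and 0.98 against si-RAB23-1, and MAVS is the only filled symbol for si-RAB23-1.

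IFNB1 (ENSG00000171855, chromosome 9, 21077105 to 21077963, reverse strand), a single-exon gene, was close to the detection limit and did not pass the filter on low values. With no filter its log2 fold change for si-RAB23-9 against si-NC was 0.17 (limma adjusted p = 0.469). Recovered reads were 4 and 1 in si-RAB23-9 libraries and 0 and 1 in si-RAB23-1 libraries, against 1 and 0 in si-NC libraries, or 0.247 and 0.0656, 0 and 0.0524, and 0.0488 and 0 FPKM in the same order. A count of 0 allows up to 3 reads, which is 0.146 to 0.211 FPKM per library, so 1 library of si-RAB23-9 was above that limit and the other 5 were not. Over the group, 5 reads with si-RAB23-9 against 1 read with si-NC is a ratio of 5.91 per recovered read, with an exact 95% interval of 0.662 to 279.7 that covers counting error only. A difference in IFNB1 was not detectable at this depth.

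Other interferon genes gave more reads. IFNL1, a lambda interferon, had 28 and 22 reads in si-RAB23-9 libraries and 5 and 6 in si-RAB23-1 libraries, against 10 and 11 in si-NC libraries. It was the only one of the 21 other interferon genes to enter the test, through its si-RAB23-9 libraries (log2 fold change 0.72, limma adjusted p = 0.0317 against si-NC, and 0.95, limma adjusted p = 0.0113 against si-RAB23-1), so it had to be higher there. With no filter on low values the difference from si-NC did not pass (limma adjusted p = 0.0621), and that from si-RAB23-1 did (0.0281). Leaving out any 1 of the 4 libraries compared ended the call against si-NC (limma adjusted p up to 0.167), and leaving out either si-RAB23-9 library ended that against si-RAB23-1 (up to 0.0770).

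IFNL2 had 12 and 10 reads in si-RAB23-9 libraries and 5 and 4 in si-RAB23-1 libraries, against 3 and 5 in si-NC libraries. IFNL3 had 8 and 21 reads with si-RAB23-9, 2 and 7 with si-RAB23-1, against 5 and 1 with si-NC. These genes are near-identical copies, so reads of one may have been given to the other. IFNE, an interferon of epithelia, had 16 and 13 reads with si-RAB23-9, 13 and 33 with si-RAB23-1, against 34 and 25 with si-NC, so it did not follow the lambda interferons. IFNA1 and IFNL4 had at most 1 read in a library, and 15 of the 21 genes, including IFNG and IFNW1, had none in any library.

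**Figure D3:**
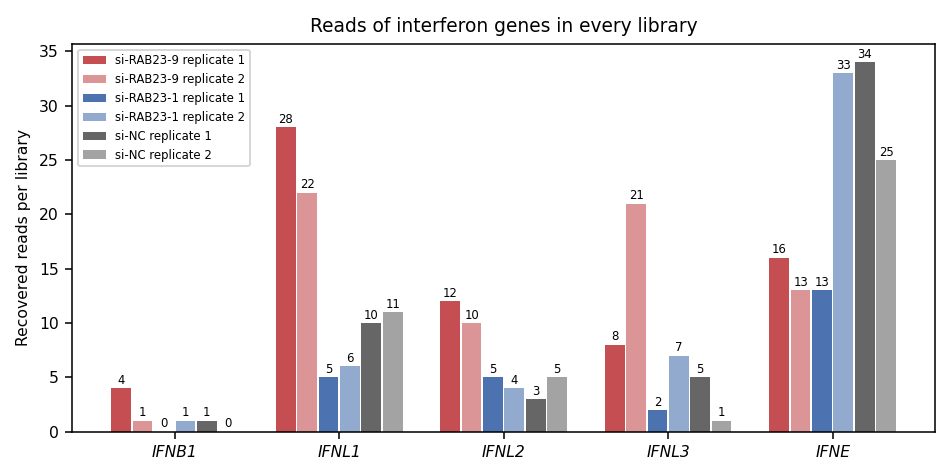
Recovered reads (vertical axis, from 0) of 5 interferon genes in each library, with si-RAB23-9, si-RAB23-1 and si-NC bars from left to right within a gene and the count above each bar. IFNL1 reaches 28 and 22 reads in the si-RAB23-9 libraries against 10 and 11 in si-NC libraries, and IFNB1 never exceeds 4.

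Genes that help RIG-I and MDA5 see RNA moved in part. Of 16 such genes 15 were tested: 4 rose and 1 fell with si-RAB23-9, 2 rose and 1 fell with si-RAB23-1, beside 13.3% and 15.4% of all genes tested, and the median log2 fold changes were near 0 (-0.000018 and 0.04), beside 0.0060 and 0.0083 over all genes tested. TRIM25, the ubiquitin ligase that helps activate RIG-I, had 35.8 and 34.3 FPKM in si-RAB23-9 libraries and 24.8 and 24.7 FPKM in si-RAB23-1 libraries, against 23.6 and 23.4 FPKM in si-NC libraries (0.56 with si-RAB23-9, limma adjusted p = 0.00229). ZC3HAV1, the antiviral protein ZAP, rose by 0.67 with si-RAB23-9 (limma adjusted p = 0.00285). ZCCHC3, a co-receptor that binds RNA and helps both helicases, rose with both siRNAs: 23.9 and 25.0 FPKM in si-RAB23-9 libraries and 22.4 and 24.8 FPKM in si-RAB23-1 libraries, against 14.1 and 15.2 FPKM in si-NC libraries. Its log2 fold changes were 0.70 (limma adjusted p = 0.00424) and 0.65 (limma adjusted p = 0.00455). DHX33, an RNA helicase, fell with si-RAB23-9 (-0.34, limma adjusted p = 0.00673), a call that ended when any 1 of the 4 libraries compared was left out.

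The relay between MAVS or TLR3 and the transcription factors was tested for 18 of 19 genes. With si-RAB23-9, 3 rose (median 0.04), and with si-RAB23-1, 2 rose and 2 fell (median 0.13). Of all genes tested, 13.3% and 15.4% were called with these siRNAs, so these counts stand close to those shares. At an unadjusted p under 0.05 in limma, 8 and 11 of the 18 passed, beside 4256 and 4556 of 14352 genes. Between the siRNAs, 4 were higher and 4 were lower with si-RAB23-9, beside 21.0% of all genes tested. TRAF3, a ubiquitin ligase that couples MAVS to its kinases, rose with si-RAB23-9 to 7.09 and 7.08 FPKM, against 4.73 and 4.33 FPKM in si-NC libraries (0.55, limma adjusted p = 0.00480), and had 5.33 and 5.39 FPKM with si-RAB23-1. TRAF2 rose by 0.39 (limma adjusted p = 0.0105) with si-RAB23-9, a call that ended when si-NC replicate 2 or either si-RAB23-9 library was left out. TRADD, an adaptor of the MAVS complex, rose more with si-RAB23-1 (0.54, limma adjusted p = 0.00309) than with si-RAB23-9 (0.17, limma adjusted p = 0.0475, lost whichever library was left out), and the difference between them passed (-0.36, limma adjusted p = 0.00492). SIKE1, a suppressor of the kinase IKKepsilon, fell with si-RAB23-1 (-0.48, limma adjusted p = 0.00648), a call that ended when si-NC replicate 2 was left out.

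Around PKR, all 13 genes of the translation-control axis were tested: 1 rose and 1 fell with si-RAB23-9, 2 rose with si-RAB23-1, with medians of 0.00042 and 0.06. The share called against si-NC is near that of all genes tested, 13.3% with si-RAB23-9 and 15.4% with si-RAB23-1. At an unadjusted p under 0.05 in limma, 7 passed with si-RAB23-9 and 2 with si-RAB23-1, beside 4256 and 4556 of 14352 genes. Between the siRNAs, 1 was higher and 4 were lower with si-RAB23-9, beside 21.0% of all genes tested. PPP1R15B, a constitutive subunit of the phosphatase that reverses the mark PKR sets on eIF2, had 21.7 and 20.9 FPKM in si-RAB23-9 libraries and 31.0 and 29.8 FPKM in si-RAB23-1 libraries, against 30.5 and 31.5 FPKM in si-NC libraries. It fell with si-RAB23-9 (-0.52, limma adjusted p = 0.00331), whichever library was left out. EIF2S2, a subunit of eIF2, rose by 0.16 with si-RAB23-9 (limma adjusted p = 0.0354). The kinase EIF2AK1 (0.19, limma adjusted p = 0.0332) and the stress-induced phosphatase subunit PPP1R15A (0.26, limma adjusted p = 0.0184) rose with si-RAB23-1, and these calls and that of EIF2S2 each ended when either si-NC library was left out.

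Of 9 receptor and JAK-STAT genes tested, 3 rose with si-RAB23-9, among them the interferon gamma receptor chains IFNGR1 (0.28, limma adjusted p = 0.0250) and IFNGR2 (0.27, limma adjusted p = 0.0194), and 2 fell with si-RAB23-1, among them IFNAR1, a chain of the type I receptor (-0.25, limma adjusted p = 0.0305). The calls of these named genes each ended when either si-NC library was left out. The list's medians were 0.12 with si-RAB23-9 and -0.02 with si-RAB23-1. Over all 14352 genes the called share was 13.3% for the first siRNA and 15.4% for the second. Since only 9 genes of the list were tested, the counts of 3 and 2 are not read as results about the list.

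Of all genes tested, 13.3% were called with si-RAB23-9 (7.56% higher) and 15.4% with si-RAB23-1 (8.13% higher and 7.26% lower). These shares stand beside the counts of brakes on the response and of antiviral effectors given here. Brakes on the response were all 12 tested. With si-RAB23-9, 5 rose (median 0.18), among them USP18, which silences the type I receptor (1.00, limma adjusted p = 0.00285), ISG15, a ubiquitin-like protein (0.86, limma adjusted p = 0.00409), and TNFAIP3, a ubiquitin editor (0.47, limma adjusted p = 0.0249). With single libraries left out 2 to 5 genes of the list rose, USP18 and ISG15 each time. With si-RAB23-1, 1 changed, as SOCS1, an inhibitor of JAK kinases, fell (median 0.06): it had 3.54 and 3.70 FPKM in si-RAB23-9 libraries and 1.48 and 1.70 FPKM in si-RAB23-1 libraries, against 4.20 and 3.53 FPKM in si-NC libraries (-0.91 with si-RAB23-1, limma adjusted p = 0.00496). Among 22 tested antiviral effectors, 20 rose with si-RAB23-9 (median 0.80), and 5 rose and 1 fell with si-RAB23-1 (median 0.14, and 0 to 5 rises with single libraries left out). IFI27 and IFI44L entered only through their si-RAB23-9 libraries. With no filter 21 of 28 effectors rose with si-RAB23-9, beside 2.79% of 35196 genes called in either direction. The largest rises with si-RAB23-9 among those tested were those of the membrane tether BST2 (1.82), IFI6 (1.74), the entry inhibitor IFITM1 (1.70) and OAS2 (1.38), which makes the messenger that activates RNase L (limma adjusted p = 0.00143, 0.00229, 0.00154 and 0.00229).

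**Figure D4:**
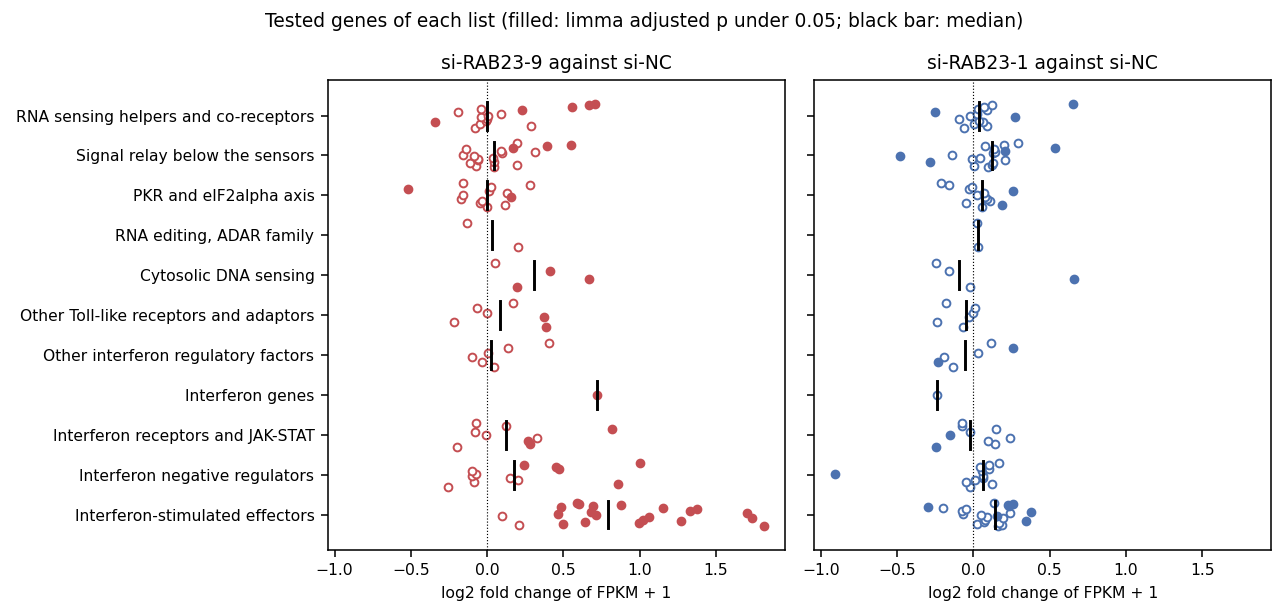
Log2 fold change of FPKM + 1 (horizontal axis) of each tested gene in 11 lists around the sensors, with si-RAB23-9 against si-NC on the left and si-RAB23-1 against si-NC on the right, filled points at limma adjusted p under 0.05 and a black bar at each list's median. With si-RAB23-9 the antiviral effectors lie farthest to the right (median 0.80), and helper, relay and PKR lists are centred near 0. With si-RAB23-1 the median is 0.13 for the relay list and 0.14 for the effectors.

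The genes with the profile most like each helicase sensor were sought among 7534 genes of mean FPKM at least 5, by the root mean square difference of profiles over the 6 libraries, each centred on its mean. For DDX58 they were ZNF664 (0.088), IFIT1 (0.104), ADAM19 (0.109), HELZ2 (0.113) and BTG2 (0.114), beside 0.435 for the size of the DDX58 profile itself. For IFIH1 they were IFI35 (0.018), ZC3HAV1 (0.040), TRIM14 (0.040), PTMS (0.041) and TRIM25 (0.042), beside 0.278. For DHX58 they were PODXL, PML, TRIM14, SERPINH1 and IFIH1, at 0.032 to 0.049 beside 0.251. Profiles were of log2(FPKM + 1), which understates changes of low genes, so likeness to DHX58 holds on that scale only. Mean FPKM with si-RAB23-9 against si-NC was 1.51 against 0.755 for DHX58 and 15.1 against 10.4 for PODXL. All profiles come from the same libraries.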

How the data were processed

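RNA sequencing of KYSE30 cells gave 6 libraries, 2 per siRNA group by their titles. The values are FPKM, deposited by the authors in 1 table with gene lengths and coordinates. Per the submitters' processing notes, which give no roles, the tools were STAR 2.5.1b, RSEM 1.2.29, edgeR 3.8.5, Trimmomatic 0.36 and FastQC, and the build was hg19. All 58735 gene positions equal GENCODE release 29 on GRCh38. Value times length was a whole multiple of 1 step per library for 100% of values (within 0.01 read), and these steps gave the reads. How reads of overlapping genes were assigned is not given.

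Of 35196 genes above 0, 14352 reached FPKM 1 in 2 or more libraries and were tested in R 4.3.3 with limma 3.58.1. The model of log2(FPKM + 1) had 1 mean per group over all 6 libraries and eBayes with trend. Tests were two-sided, and genes were called where the Benjamini-Hochberg adjusted p over the genes tested was under 0.05. Tables and figures were made in Python 3.11.15.

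The 10 genes and the lists were chosen with earlier results of these data known. All 10 genes are named. From each list up to 4 genes are named, those called against si-NC with the largest change, and some of these are not reported here. ADARB1, the interferon genes other than IFNL1, single markers and overlapping genes fall outside this rule and were chosen after their values were seen. Alternatives covered pseudocount, filter, scaling, model, replicate number and left-out libraries.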

Additional observations from a re-analysis of the deposited data

Results flagged for a closer look

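The responses to the 2 RAB23 siRNAs differed, by the direct test of si-RAB23-9 against si-RAB23-1, for 6 of the 9 tested genes, beside 21.0% of all genes tested. DDX58 was higher with si-RAB23-9 by 0.98 on the log2(FPKM + 1) scale, IFIH1 by 0.56, DHX58 by 0.53, EIF2AK2 by 0.38 and ADAR by 0.37. MAVS was lower, with a difference of -0.15, while RAB23 itself differed by 0.11 without passing the test (limma adjusted p = 0.383). The 6 genes were picked by this test on the same libraries, so a difference seen in both si-RAB23-9 libraries adds no support. What lies behind the differences was not tested. DHX58 entered the test only through its si-RAB23-9 libraries, and its call ended with no filter on low values (limma adjusted p = 0.0783) and whichever library was left out. With no filter 5 of the 10 genes passed, beside 4.14% of all genes.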

How the results depend on the processing

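The calls of DDX58, IFIH1 and ADAR with si-RAB23-9 held under all 17 alternatives, against si-NC and against si-RAB23-1. Genes called with si-RAB23-1 against si-NC (2209) numbered 1049 with no filter, 1234 with only these 2 groups, and 3800 and 3794 with voom on recovered reads (library totals and median-of-ratios sizes), and 338 to 1820 without single libraries. With si-RAB23-9 against si-NC (1902) they numbered 983 with no filter, and 3408 and 3407 with voom, and 258 to 2075 without single libraries. Between the siRNAs (3019) they numbered 1458 with no filter, 1919 with 2 groups, and 705 to 2691 without single libraries. Of the 10 genes, with single libraries left out 0 to 1, 3 to 4 and 3 to 5 were called in these comparisons (1, 5 and 6 in the main test). The 1 call of si-RAB23-1, MAVS, became 0 with 2 groups only or with no trend.

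Signs reversed only in values that passed in no setting. With single libraries left out, the si-RAB23-1 differences from si-NC ranged -0.066 to 0.044 for DHX58, -0.012 to 0.097 for IFIH1, -0.068 to 0.030 for IRF3 and -0.12 to 0.022 for TLR3. IRF3 ranged -0.040 to 0.00059 for si-RAB23-9 against si-NC. Between the siRNAs IRF3 ranged -0.050 to 0.049 and TLR3 -0.096 to 0.049, and with voom and library totals these were 0.020 and 0.0035. Quantile normalization gave 0.020 for DHX58 with si-RAB23-1 and -0.0085 for MAVS with si-RAB23-9. The cause was not tested.

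Differences of replicate 2 from replicate 1 were nearly uncorrelated between groups (correlations -0.056, -0.016 and 0.061 over genes). Whether libraries of the same replicate number were handled together is not given in the labels. With a replicate block 1655, 1437 and 2423 genes and 1, 4 and 4 of the 10 were called. With 1 library left in a group, that library was assumed to vary like the other groups. A mean FPKM of at least 5 left no value for TLR3, IRF7 and DHX58.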

Other observations

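Sensors of other nucleic acids were measured beside those of double-stranded RNA. Of 8 cytosolic DNA sensing genes 4 were tested: 3 rose with si-RAB23-9 and 1 with si-RAB23-1, beside 13.3% and 15.4% of all genes tested, with medians of 0.31 and -0.09. IFI16, a DNA sensor, rose with both, at 5.55 and 5.19 FPKM in si-RAB23-9 libraries and 4.95 and 5.77 FPKM in si-RAB23-1 libraries, against 3.13 and 2.90 FPKM in si-NC libraries (0.67 and 0.66, limma adjusted p = 0.00803 and 0.00763). SAMHD1, which degrades deoxynucleotides, rose with si-RAB23-9 (0.41, limma adjusted p = 0.0155), as did CGAS, which makes the messenger that activates STING (0.20, limma adjusted p = 0.0353). Each of the si-RAB23-9 calls ended when any 1 of the 4 libraries compared was left out, and the si-RAB23-1 call of IFI16 when si-NC replicate 2 was.

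Of 14 other Toll-like receptor and adaptor genes 6 were tested, and 2 rose with si-RAB23-9: IRAK1 (0.39, limma adjusted p = 0.00474), kept whichever library was left out, and the adaptor MYD88 (0.37, limma adjusted p = 0.0118), lost when any 1 of the 4 libraries compared was left out. With si-RAB23-1, 0 of the 6 passed in limma, 1 at an unadjusted p under 0.05 and 2, both lower, with voom on recovered reads. Of all 14352 genes tested, 13.3% passed in limma with si-RAB23-9 and 15.4% with si-RAB23-1. At an unadjusted p under 0.05 these were 4256 and 4556 genes, and with voom (library totals) 3408 and 3800. The lists of this paragraph are short, and their counts are not read as results about the lists. Among 6 tested of 9 other interferon regulatory factors, 0 passed with si-RAB23-9 in limma, 2 at an unadjusted p under 0.05 and 2, both higher, with voom, while IRF2 fell (-0.23, limma adjusted p = 0.0280) with si-RAB23-1, a call that ended when either si-NC library was left out. Of the 5 genes around ADAR, its relatives and AIMP2, 2 were tested (medians 0.03 with each siRNA). In limma 0 passed, and with si-RAB23-9 1 passed at an unadjusted p under 0.05 and 1 with voom. ADARB1 had 2.39 and 2.36 FPKM in si-RAB23-9 libraries and 2.00 and 2.01 FPKM in si-RAB23-1 libraries, against 1.88 and 2.01 FPKM in si-NC libraries (0.20 with si-RAB23-9, limma adjusted p = 0.127).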
